A study of Danio rerio with 17 samples.

Results

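Apolipoproteins are the protein part of the particles that carry lipids in blood, and most of them are made by hepatocytes. The 10 apolipoprotein genes described here are *apoa1a*, *apoa1b*, *apoa2*, *apoa4b.1*, *apoba*, *apobb.1*, *apoea*, *apoeb*, *apoc1* and *apoc2*. They were chosen by name, as listed apolipoprotein genes that appear among the 8513 entries of the count table. They and the gene lists below were chosen with earlier results of these data known, so counts set against all entries are descriptive. The data are bulk RNA-seq of adult zebrafish livers in 17 samples, with 5 from sham-operated fish and 4 from each of days 1, 3 and 7 after cryoinjury (dpci). Cryoinjury places a probe cooled in liquid nitrogen on the exposed liver, and the sham operation places a thawed probe at the same site. The study names Tg(fabp10a:NLS-mCherry) as the line of these fish, a transgene that puts a red fluorescent protein in hepatocyte nuclei, and per the methods livers of several fish were pooled in each tube. The study describes RNA-seq of the injured part of the ventral lobe and, kept apart, of tissue from other lobes. A legend names ventral lobes for the sham and injured samples. The labels name neither the lobe nor the age, so which tissue a sample holds cannot be read from its label. The methods give only an age range for the fish of the study as a whole. The methods and a legend differ on how many pools were made. Whether the samples of a group are independent pools is therefore not stated, and the p-values below measure the spread between these samples, which may be technical.

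The apoA-I, apoA-II and apoA-IV proteins (*apoa1a*, *apoa1b*, *apoa2*, *apoa4b.1*) are carried mainly on high-density lipoproteins or move between particle classes. ApoB (*apoba*, *apobb.1*) is the large scaffold on which a very-low-density or low-density lipoprotein is built, with 1 copy staying on each particle. ApoE (*apoea*, *apoeb*) is a ligand for receptors that clear particles from blood, and the small apoC proteins (*apoc1*, *apoc2*) tune lipoprotein lipase, which apoC-II activates. These roles are known mostly from mammals. The pairs written a and b are paired gene copies (paralogues) of zebrafish, and reads that match more than 1 copy could be divided between them by the counting, so the levels of near-identical copies carry that uncertainty. Levels are compared between samples and not between genes, because counts depend on transcript length.

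Between 4743533 and 6800961 counts were summed per sample, of which 30.3 to 49.5% lay on entries of the mitochondrial genome. This share was 43.8 to 49.5% in sham and 30.3 to 40.5% at 1 dpci, without overlap. It was 30.6 to 38.4% at 3 dpci and 30.9 to 49.4% at 7 dpci. Levels are given as CPM, the count of a gene scaled to a fixed total per sample. That total includes the mitochondrial counts, so a lower mitochondrial share raises the CPM of the other entries. Hepatocyte markers were present throughout, with 20 of 20 listed markers in the table and none at 0 in every sample of a group. Markers of other cells were present as well. The summed level of 15 exocrine pancreas markers ranged from 5014 to 25850 CPM in sham and from 651 to 8932 CPM at 1 dpci. It ranged from 2116 to 6086 CPM at 3 dpci and from 2096 to 43962 CPM at 7 dpci. At 1 dpci the samples fell into 2 pairs with neighbouring library numbers, replicates 1 and 2 and replicates 3 and 4. Within these pairs r of log2 CPM across genes was 0.965 and 0.969, against at most 0.917 for the other pairs within groups. Some of the other pairs had neighbouring numbers too, such as sham replicates 1 and 2 (r = 0.836) and 7 dpci replicates 2 and 4 (r = 0.862). The counts within the 1 dpci pairs differed by more than sampling noise (chi-square per degree of freedom 9.68 and 20.5, against 25.9 to 149.9 for the other pairs), which repeat libraries of 1 pool may also do. They were counted as 4 samples because the labels list 4. For the genes named below, calls at 1 dpci against sham that were lost when a pair was left out or the pairs were summed are given. Sham replicates 1 to 4 had library numbers above those of all injured samples, and sham replicate 5 had one below them. The same number occurs at both 3 and 7 dpci, so the numbers may not form a single series.

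**Figure D1:**
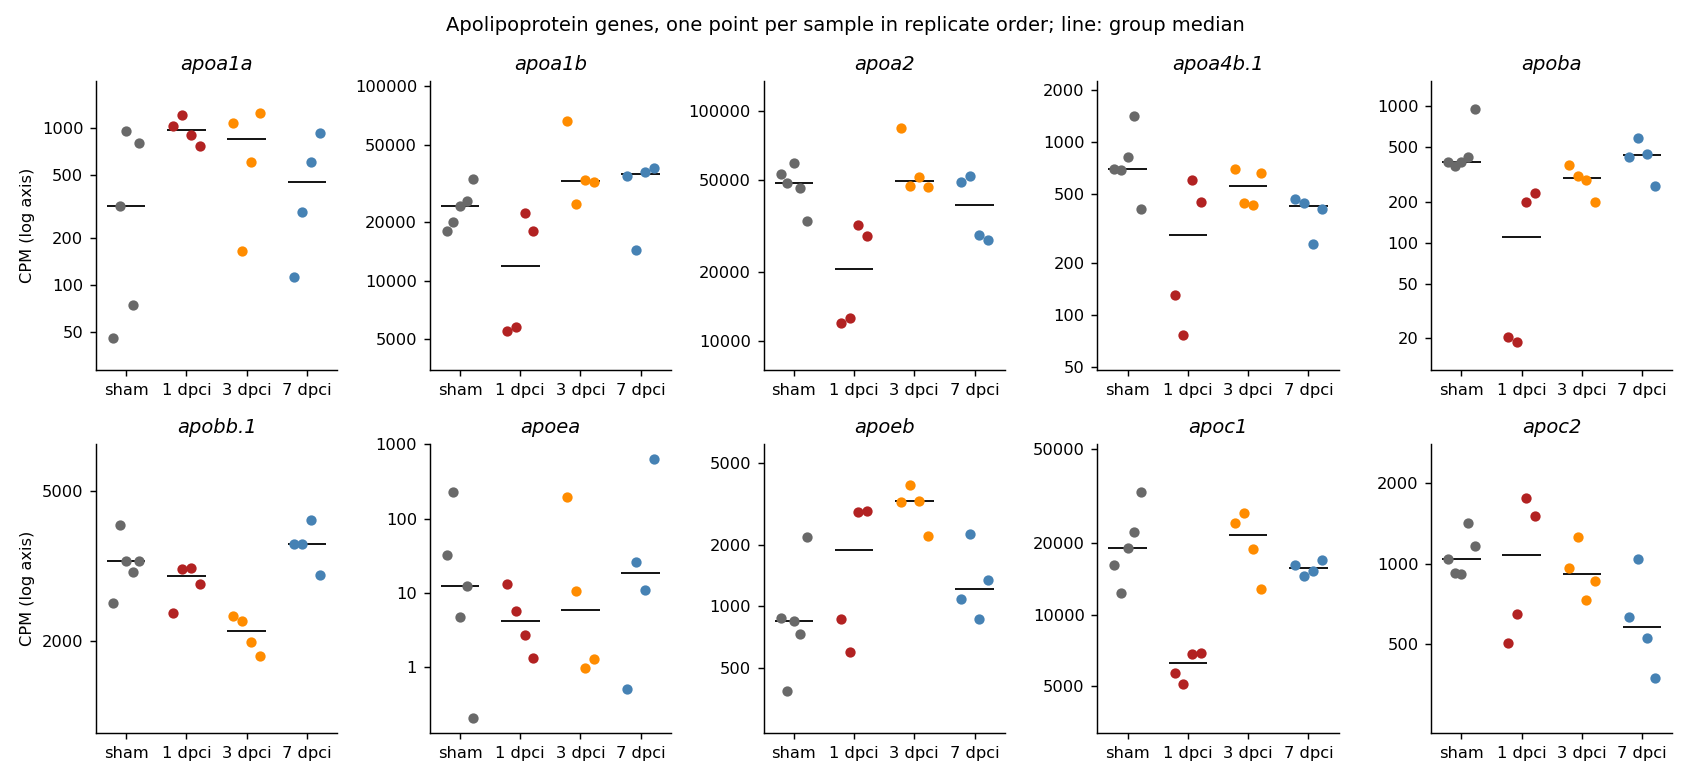
CPM of the 10 apolipoprotein genes on log axes, with 1 point per sample in replicate order and a line at the group median. *apoc1* lay between 5092 and 6922 CPM in the 4 samples of 1 dpci and between 12391 and 32883 CPM in sham, and in several other genes the 1 dpci samples split into a low pair and a high pair.

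At 1 dpci 6 of the 10 genes fell against sham and none rose. The 6 were *apoa1b*, *apoa2*, *apoa4b.1*, *apoba*, *apobb.1* and *apoc1*, at an adjusted p of at most 0.05 (edgeR's quasi-likelihood test, p adjusted by the method of Benjamini and Hochberg across 8412 entries). Of all those entries, 14.5% fell by the same rule and 9.43% rose. The median log2 fold change was -2.05 over the 10 genes and -0.02 over all entries. With the thresholds of the study's methods, a log2 fold change of 1.5 and an unadjusted P of 0.05, 5 of the 10 fell, against 11.9% of entries. In bulk tissue, fewer hepatocytes and less RNA of a gene per hepatocyte cannot be told apart. Of the 20 hepatocyte markers, 10 fell and 2 rose in the same comparison, with a median of -1.36. Their summed level on column totals was higher at 1 dpci (82354 to 88889 CPM) than in every sham sample (64476 to 78487 CPM). Within this sum, mean CPM from sham to 1 dpci went from 3828 to 12935 for *fgb* and from 2567 to 11383 for *fga*. That of *c3a.1* went from 6672 to 18217. Means fell from 14112 to 9166 CPM for *fabp10a*, 2448 to 342 for *fetub* and 1501 to 109 for *rbp4*. On column totals 3 of the 20 were called higher and 6 lower, against 37.5% and 5.62% of all entries. The sum on column totals thus rose although more markers were called lower than higher. The scaling factors of the fit, given in the next paragraph, were higher at 1 dpci and would lower this sum relative to sham. No sum on that scale is given. In the comparison of the 10 genes above, 12 of the 15 exocrine pancreas markers fell. The part of either list in the apolipoprotein changes was not tested.

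The scaling of the libraries mattered at 1 dpci. The fit used TMM factors, which ranged from 0.608 to 1.03 in sham and from 1.2 to 1.69 at 1 dpci. When column totals were used in their place, the median of all entries moved to 0.84, and 4 of the 10 genes fell (*apoa2*, *apoa4b.1*, *apoba* and *apoc1*), against 5.62% of entries. With column totals outside the mitochondrial genome, *apoa1b* fell as well, which made 5 of the 10, and 595 of 8412 entries fell. Measured from the median of all entries, the median of the 10 genes was -2.03 with TMM factors and -1.88 with column totals. Against sham replicate 5 alone, the sham sample whose library number lay apart from the other 4, 1 of the 10 genes passed (*apoc1*, edgeR's test with the spread taken from the other groups), against 0.917% of entries. The median of the 10 was then -0.91, and 9 of them were below 0. The CPM values below are on column totals and the fold changes on TMM factors unless stated. Placements of samples against the range of another group are on column totals too. Some of these placements differ with TMM factors.

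*apoc1* had the lowest adjusted p of the 10 genes. Its level in sham was 16240, 12391, 19157, 22269 and 32883 CPM, and at 1 dpci it was 5667, 5092, 6820 and 6922 CPM. Every 1 dpci sample lay below every sham sample, and the means were 20588 ± 7781 (SD, n = 5) and 6126 ± 894 (SD, n = 4) CPM. This was a log2 fold change of -2.61 ± 0.31 (SE), with an adjusted p of 9.2e-05 in edgeR's test, and -1.75 with column totals. *apoc1* passed under every alternative run for this comparison, the omission of either 1 dpci pair included.

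*apoc2*, whose product activates lipoprotein lipase, did not pass at 1 dpci. It measured 915 to 1413 CPM in sham and 505, 651, 1750 and 1499 CPM at 1 dpci, so that 2 samples lay below every sham sample and the other 2 above. Scaled by TMM factors, *apoc2* had 391 to 1038 CPM at 1 dpci, all below the sham range of 1129.5 to 1896.5 CPM. Its log2 fold change was -0.96 ± 0.37 (SE) with TMM factors (adjusted p = 0.0666) and 0.01 with column totals, so its direction depended on the scaling. It passed in DESeq2 (adjusted p = 0.0367), in the fit of the 2 groups alone (0.0451) and without replicates 3 and 4 of 1 dpci (0.0270). It also passed in the fit without 7 dpci replicate 2.

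Of the high-density lipoprotein genes, *apoa2* fell with no overlap between groups. It measured 53327, 48745, 59422, 46002 and 33229 CPM in sham and 11928, 12566, 32007 and 28437 CPM at 1 dpci. The highest 1 dpci sample lay just under the lowest sham sample, replicate 5. The fit gave -2.20 ± 0.40 (SE), with an adjusted p of 0.00123, and -1.18 with column totals.

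*apoa1b* measured 17947, 20099, 24151, 25676 and 33282 CPM in sham. At 1 dpci it measured 5545 and 5751 CPM in replicates 1 and 2, and 22412 and 17971 CPM in replicates 3 and 4. The first pair lay below every sham sample and the second within the sham range. Scaled by TMM factors, all 4 samples (4292.8 to 13291 CPM) lay below the lowest sham sample (20946 CPM). Over the 4 samples the log2 fold change was -1.90 ± 0.45 (SE) with an adjusted p of 0.00769. The call was lost with column totals (-0.91, adjusted p = 0.0824), without replicates 1 and 2 of 1 dpci (-1.34, adjusted p = 0.133) and with the 1 dpci samples summed in 2 pairs (adjusted p = 0.0677). It held with column totals outside the mitochondrial genome.

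The other copy, *apoa1a*, did not pass in any comparison. In sham it measured 46.0, 318, 952, 74.3 and 794 CPM, a 20.7-fold range, and at 1 dpci it measured 1026, 1202, 896 and 763 CPM. On column totals the 1 dpci samples thus lay at the upper end of the sham range, and 2 of the 4 exceeded every sham sample. Scaled by TMM factors, all 4 (498 to 1003 CPM) lay inside the sham range (53.7 to 1565 CPM). The fitted change was 0.24 ± 0.79 (SE) with TMM factors (adjusted p = 0.848) and 1.15 with column totals.

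*apoa4b.1* measured 410 to 1399 CPM in sham. At 1 dpci it measured 130 and 76.7 CPM in replicates 1 and 2 and 600 and 448 CPM in replicates 3 and 4, again with only the first pair below the sham range. On the log2 scale the change was -2.43 ± 0.51 (SE, adjusted p = 0.00318) and -1.35 with column totals. Without replicates 1 and 2 of 1 dpci the adjusted p was 0.0519.

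Among the scaffold genes, *apoba* had the largest fall of the 6 that passed. It measured 390, 362, 392, 422 and 956 CPM in sham and 20.4, 18.6, 199 and 229 CPM at 1 dpci. No 1 dpci sample reached the sham range, and replicates 3 and 4 were 11 times as high as replicates 1 and 2. The log2 fold change was -3.08 ± 0.64 (SE, adjusted p = 0.00297) and -2.11 with column totals, and it remained past the threshold without either pair.

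*apobb.1*, the other apoB gene, measured 3233 ± 564 (SD, n = 5) CPM in sham and 2858 ± 355 (SD, n = 4) CPM at 1 dpci, and the groups overlapped. Scaled by TMM factors, *apobb.1* did not overlap, with 1831 to 2596 CPM at 1 dpci and 2935 to 6310 CPM in sham. Its fall of -1.11 ± 0.30 (SE) on the log2 scale (adjusted p = 0.0150) rested on the TMM factors, since column totals gave -0.18 with an adjusted p of 0.461. The call was also lost without either 1 dpci pair and with the pairs summed (adjusted p = 0.0786, 0.109 and 0.113).

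Neither apoE gene passed at 1 dpci. *apoeb* measured 876, 384, 849, 733 and 2178 CPM in sham and 862, 594, 2894 and 2933 CPM at 1 dpci. Replicates 1 and 2 lay inside the sham range and replicates 3 and 4 above it. Scaled by TMM factors, replicates 3 and 4 (1716 and 1915 CPM) lay inside the sham range (593 to 2122 CPM) and replicate 2 (496 CPM) below it. The log2 fold change was -0.03 ± 0.45 (SE, adjusted p = 0.969) with TMM factors and 0.86 with column totals. *apoea* was low and uneven, from 0.208 CPM (1 count) to 231 CPM in sham and from 1.35 to 13.1 CPM at 1 dpci, and its log2 fold change of -4.28 carried an SE of 2.06 (adjusted p = 0.137).

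**Figure D2:**
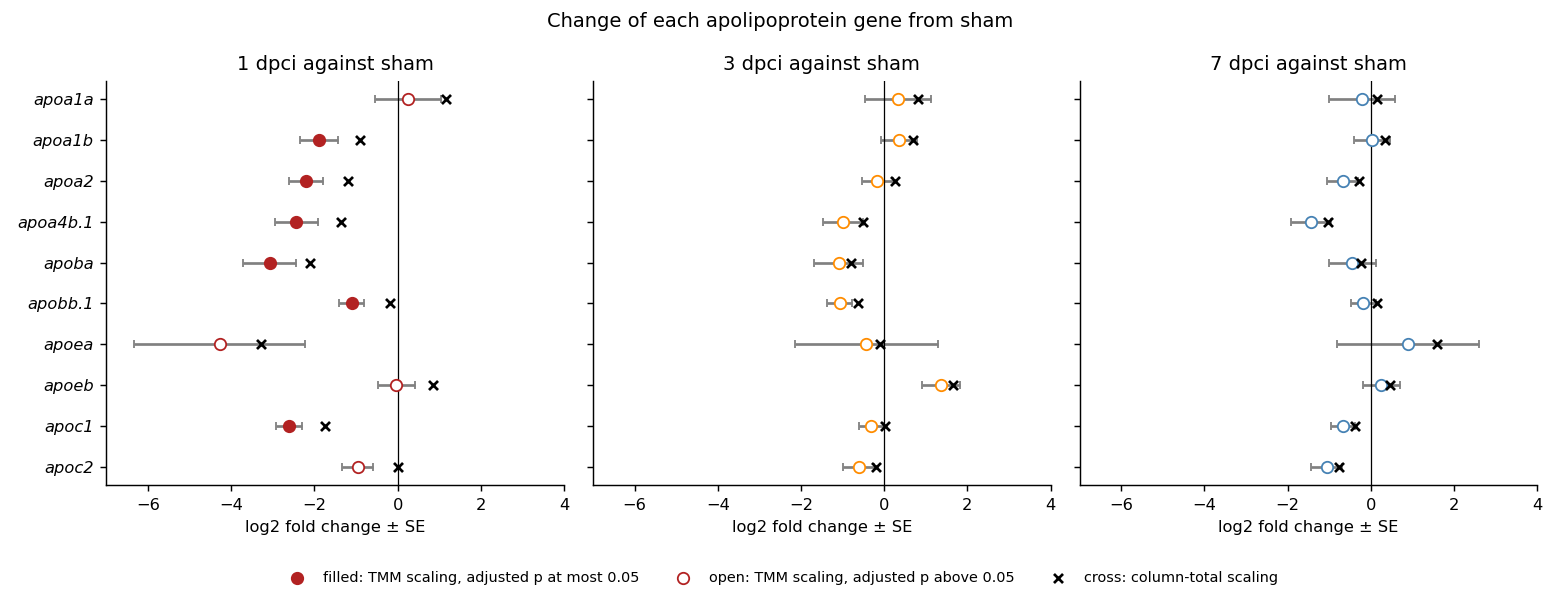
Log2 fold change of each apolipoprotein gene against sham at 1, 3 and 7 dpci, as circles with TMM factors (bars: SE, filled at an adjusted p of at most 0.05) and as crosses with column totals. The 6 filled circles stand at 1 dpci between -3.08 and -1.11. The crosses lie to the right of the circles, and the signs differ for *apoc2* and *apoeb* at 1 dpci, *apoa2* and *apoc1* at 3 dpci, and *apoa1a* and *apobb.1* at 7 dpci.

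At 3 dpci none of the 10 genes passed against sham in edgeR's quasi-likelihood test, where 1 entry of 8412 (0.0119%) passed. At an unadjusted P of 0.05 there were 2 of 10, against 11.8% of entries. DESeq2 called 1 of 10 (*apobb.1*, adjusted p = 0.0264) and 1.9% of entries, and edgeR's exact test called none of the 10 and 1.18% of entries. *apoeb* was the gene with the higher level. It measured 3252, 3903, 3267 and 2203 CPM at 3 dpci, all above the highest sham sample of 2178 CPM, with a mean of 3156 ± 704 (SD, n = 4) against 1004 ± 685 (SD, n = 5) CPM. Scaled by TMM factors, *apoeb* in 3 dpci replicate 4 was 1628 CPM, inside the sham range of 593 to 2122 CPM. The log2 fold change was 1.37 ± 0.45 (SE), with an adjusted p of 0.24 in edgeR's test.

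In zebrafish *apoeb* is also a gene of macrophages, so the 16 macrophage and neutrophil markers in the table were set beside it. Their summed level was 119 to 691 CPM in sham and 212 to 1092 CPM at 3 dpci. In 3 dpci replicates 1 to 4 it was 212, 917, 1092 and 281 CPM. None of the 16 passed at 3 dpci against sham, where only 0.0119% of all entries did. Their median log2 fold change was 0.66, against -0.01 over all entries, and their part in the level of *apoeb* was not tested.

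*apobb.1* was lower at 3 dpci, with 2330, 2264, 1990 and 1818 CPM, all below the lowest sham sample of 2515 CPM. The log2 fold change was -1.07 ± 0.30 (SE, adjusted p = 0.174 in edgeR's quasi-likelihood test) and -0.62 with column totals. On column totals the other 8 genes overlapped sham. With TMM factors *apoba* did not, at 147 to 449 CPM against 455 CPM or more in sham. How many of all entries were without overlap was not determined, so the separations here and at 1 dpci have no background to be set against. *apoa2* and *apoc1* had log2 fold changes of -0.17 and -0.32 with TMM factors and of 0.25 and 0.01 with column totals.

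At 7 dpci none of the 10 genes passed against sham, as none of the 8412 entries did (0%). At an unadjusted P of 0.05 there were 3 of 10, against 9.08% of entries. DESeq2 called none of the 10 and 0.0951% of entries, and the exact test none and 0.0476%. The 3 were *apoa4b.1* (-1.44 ± 0.49, SE), *apoc2* (-1.06 ± 0.37) and *apoc1* (-0.67 ± 0.29), with adjusted p of 0.516, 0.516 and 0.529 in edgeR's test. *apoc2* measured 631, 1042, 529 and 374 CPM at 7 dpci, and 3 of these lay below every sham sample. *apoba* had 423, 589, 450 and 261 CPM, with 1 sample below every sham sample and the other 3 inside the sham range.

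The comparisons with 1 dpci share its 4 samples with the comparison above, so they are not independent of it. From 1 to 3 dpci 4 of the 10 genes rose, against 7.66% of entries. These were *apoa1b* (2.25 ± 0.47, SE, adjusted p = 0.00712), *apoa2* (2.03 ± 0.41, adjusted p = 0.00529), *apoba* (1.98 ± 0.62, adjusted p = 0.0487) and *apoc1* (2.29 ± 0.32, adjusted p = 0.000753). DESeq2 and edgeR's exact test each called 6 of 10 higher, with *apoa4b.1* and *apoeb* added. They called 1004 and 878 of 8412 entries higher. From 1 to 7 dpci 5 of 10 rose, against 14.6% of entries. In that comparison the log2 fold changes were 1.92 ± 0.47 for *apoa1b*, 1.52 ± 0.40 for *apoa2*, 2.63 ± 0.64 for *apoba*, 0.93 ± 0.31 for *apobb.1* and 1.94 ± 0.31 for *apoc1* (adjusted p from 0.000773 to 0.0417). DESeq2 called the same 5 and 1487 of 8412 entries higher. The exact test called 6, with *apoea* added, and 1375 entries.

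*apoc1* measured 24455, 26792, 18999 and 12908 CPM at 3 dpci and 16183, 14556, 15258 and 16970 CPM at 7 dpci, all above the 4 samples of 1 dpci. *apoa1b* measured 66475, 24933, 32883 and 32070 CPM at 3 dpci, again all above 1 dpci, and 34485, 14468, 36178 and 37784 CPM at 7 dpci, where replicate 2 lay inside the 1 dpci range. *apoa2* measured 84227, 46935, 51730 and 46870 CPM at 3 dpci. At 7 dpci it measured 48961, 52103, 28763 and 27396 CPM, and the last 2 overlapped replicates 3 and 4 of 1 dpci. *apoba* measured 369, 306, 289 and 199 CPM at 3 dpci, where the lowest sample overlapped 1 dpci. *apobb.1* measured 3615, 3618, 4188 and 2987 CPM at 7 dpci, of which 3 lay above every 1 dpci sample.

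The rises from 1 dpci changed with the low pair of that group. Without replicates 1 and 2 of 1 dpci, only *apoc1* passed in each of these comparisons. The entries called higher fell as well, from 644 to 73 at 3 dpci and from 1226 to 304 at 7 dpci. For *apoba* from 1 to 3 dpci the call was lost in 6 of the 8 fits that left out 1 replicate of the 2 groups, and for *apobb.1* from 1 to 7 dpci in 5 of 8. For *apoa2* from 1 to 7 dpci it was lost in 1 of 8, the fit without 1 dpci replicate 1. With column totals, *apoba* was not called from 1 to 3 dpci (1.32, adjusted p = 0.165), nor were *apoa2* (0.89, adjusted p = 0.0556) and *apobb.1* (0.33, adjusted p = 0.228) from 1 to 7 dpci.

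The counts of the 10 genes together made up 10.01 ± 0.938% (SD, n = 5) of all counts in sham. The 1 dpci samples had 4.75 ± 2.21%, those at 3 dpci 12.5 ± 3.96% and those at 7 dpci 9.29 ± 0.877% (SD, n = 4 each). At 1 dpci it was 2.81, 2.91, 7.07 and 6.20%, every value under the lowest sham value of 8.82%. One sample at 3 dpci, replicate 1, reached 18.4%, and the other 3 lay between 9.88 and 11.1%. Outside the mitochondrial genome sham had a share of 18.9%, and 1, 3 and 7 dpci had 7.30, 19.1 and 15.1%. The shares are given without a test.

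**Figure D3:**
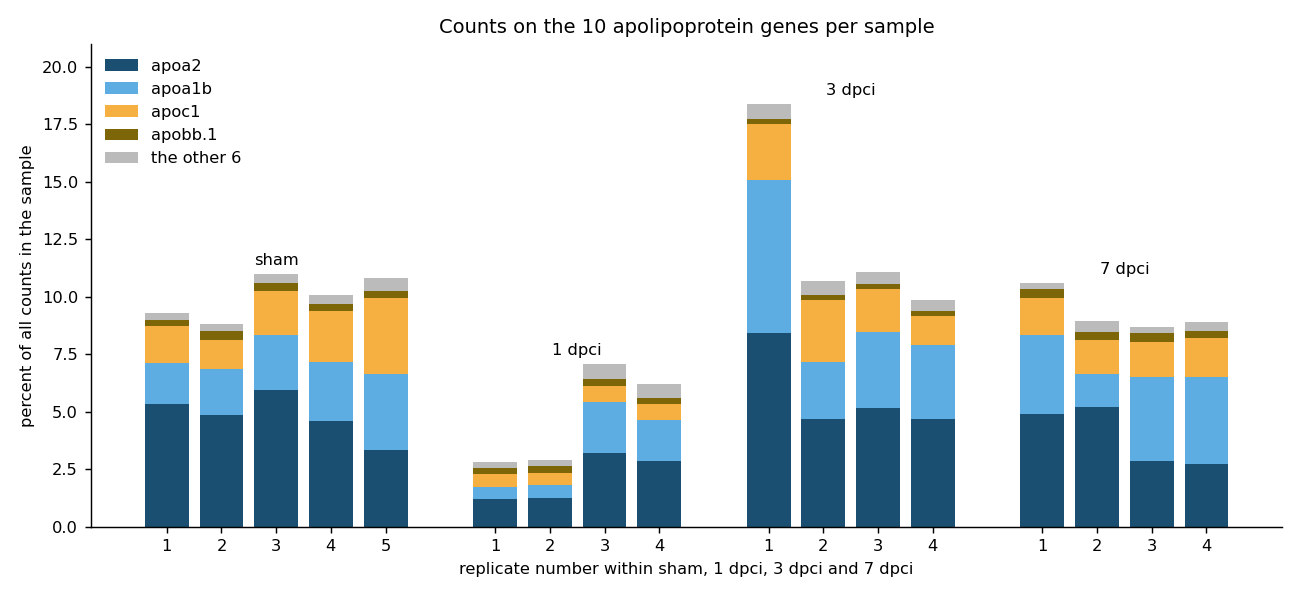
Percent of all counts on the 10 apolipoprotein genes in each sample, stacked by gene, with the genes outside *apoa2*, *apoa1b*, *apoc1* and *apobb.1* joined in grey. The bars reach 8.82 to 10.99% in sham and 2.81 to 7.07% at 1 dpci. The bars at 3 dpci reach 9.88 to 18.4% and those at 7 dpci 8.71 to 10.6%.

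Within this sum the shares of the genes also moved. *apoa2* held 48.6 ± 10.9% of the counts on the 10 genes in sham and 44.2 ± 1.598% at 1 dpci. *apoa1b* held 24.04 ± 4.35% and 25.1 ± 6.20%, and *apoc1* held 20.3 ± 6.34% and 14.6 ± 5.04%. Of the other 7 genes, 4 took a larger part at 1 dpci. *apoa1a* went from 0.417 ± 0.374% to 2.57 ± 1.54%, *apobb.1* from 3.27 ± 0.772% to 7.03 ± 3.08%, *apoeb* from 0.977 ± 0.607% to 3.48 ± 1.18% and *apoc2* from 1.09 ± 0.203% to 2.23 ± 0.305% (SD, n = 5 and 4). The parts of *apoa4b.1* (0.806 ± 0.363% to 0.575 ± 0.262%), *apoba* (0.497 ± 0.217% to 0.197 ± 0.153%) and *apoea* (0.0628 ± 0.112% to 0.0181 ± 0.0207%) were smaller. These are shares of counts and not of molecules.

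A ratio of 2 genes within a sample does not depend on the scaling. In each of the pairs *apoa1b* to *apoa1a*, *apobb.1* to *apoba* and *apoc2* to *apoc1*, all 4 samples of 1 dpci lay outside the range of the 5 sham samples. The log2 ratio of *apobb.1* to *apoba* was 2.77 ± 0.637 in sham and 5.46 ± 1.93 at 1 dpci, and that of *apoc2* to *apoc1* was -4.18 ± 0.430 and -2.66 ± 0.700. The log2 ratio of *apoa1b* to *apoa1a* went the other way, from 6.61 ± 1.80 to 3.47 ± 1.31 (SD, n = 5 and 4 for each). Its gap was narrow, with the highest 1 dpci value at 4.645 (replicate 3) and the lowest sham value at 4.665 (replicate 3).

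Each of these 3 differences had p = 0.0159 in the exact two-sided permutation test, the smallest p that 4 samples against 5 can give. Adjusted over the 12 tests of 4 ratios at 3 times, p was 0.0635, which misses 0.05. The test took the 1 dpci samples as 4, and no value with their pairs summed is given. By count, *apobb.1* had 3.41 to 11.3 times the counts of *apoba* in sham. At 1 dpci it had 116, 168, 15.7 and 12.3 times as many, and at 3 dpci 6.31 to 9.12 times. The ratio of *apoeb* to *apoea* ranged from 1.66 to 10464 in sham alone, and its difference at 1 dpci had an exact permutation p of 0.444. No ratio at 3 or 7 dpci had an exact permutation p under 0.206.

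**Figure D4:**
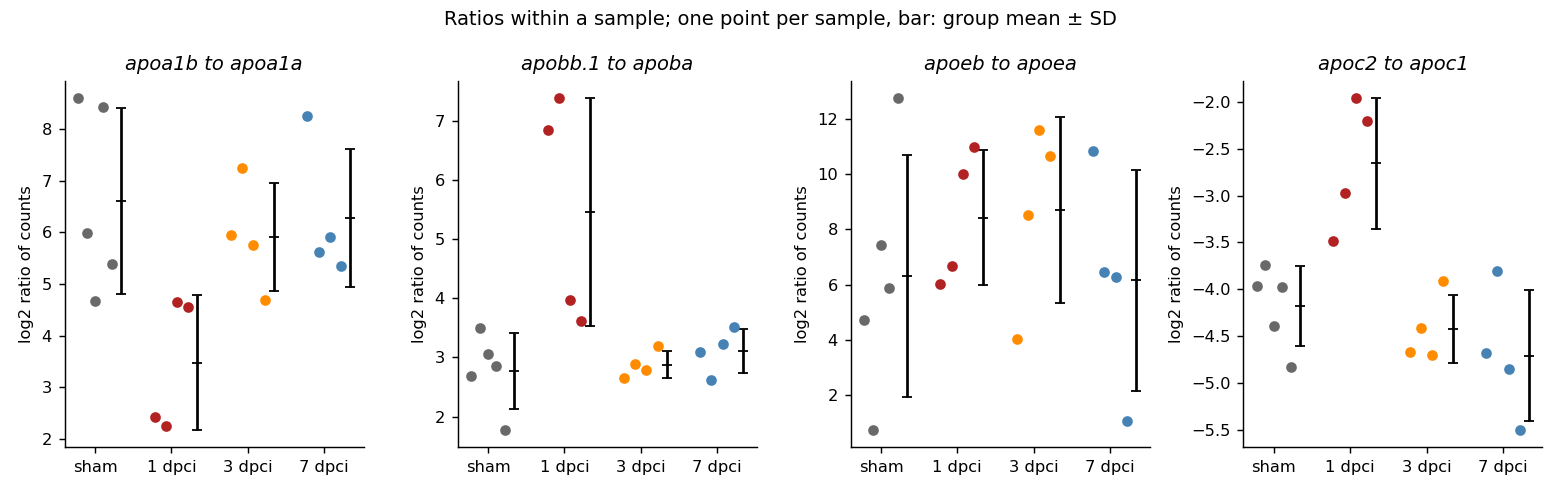
Log2 ratio of the counts of 2 apolipoprotein genes within each sample, with 1 point per sample and a bar at the group mean ± SD. The 1 dpci points of *apobb.1* to *apoba* (3.62 to 7.38) and of *apoc2* to *apoc1* (-3.49 to -1.96) lie above every sham point, and those of *apoa1b* to *apoa1a* (2.26 to 4.65) lie below.

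*apoea* had its own pattern over samples. Its 3 highest levels were 638 CPM in 7 dpci replicate 4, 231 CPM in sham replicate 2 and 196 CPM in 3 dpci replicate 1. The next was 32.9 CPM. The same 3 samples had the highest summed level of 11 enterocyte markers, genes of the absorptive cells of the intestine, at 2050, 721 and 1814 CPM, whereas the other 14 samples had 44.3 to 169 CPM. At 1 dpci the sum was 44.3 to 101 CPM. None of the 11 markers was at 0 in every sample of a group. Over the 17 samples the gene whose log2 CPM was most like that of *apoea* was *fabp1b.1* (Pearson r = 0.943), a fatty acid binding protein gene that is itself among those 11 markers. It reached 683, 445 and 424 CPM in the 3 samples. The summed level of the 15 exocrine pancreas markers in these samples was 43962, 24857 and 6086 CPM, in the same order. The first and last of these were the highest of their groups, and sham replicate 4 had 25850 CPM. Whether RNA of intestinal or pancreatic cells entered these libraries was not tested. In 3 dpci replicate 1 the levels of *apoa1b* (66475 CPM) and *apoa2* (84227 CPM) were also the highest of all 17 samples.

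**Figure D5:**
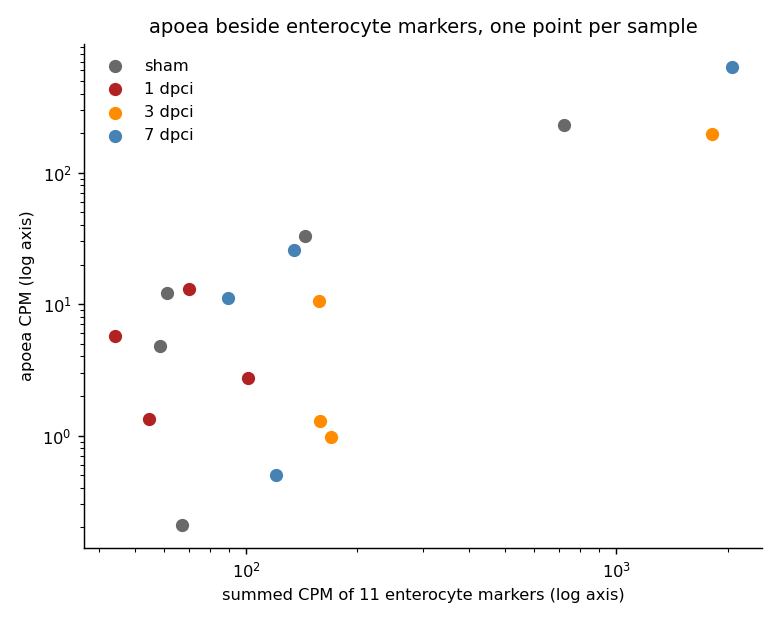
*apoea* CPM against the summed CPM of 11 enterocyte markers on log axes, with 1 point per sample coloured by group. The 3 points at the upper right are sham replicate 2, 3 dpci replicate 1 and 7 dpci replicate 4, at 196 to 638 CPM of *apoea*.

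For the other genes, likeness over the 17 samples is given as Pearson r of log2 CPM among 8411 entries, as a description of samples that share their libraries and a split between 1 dpci and the rest. *apoba* was most like the catalase gene *cat* (r = 0.966) and *cyp1a* (r = 0.958). *apoc1* was most like *si:ch211-288g17.4* (r = 0.965) and *acat1* (r = 0.949), and *apoa1b* like *si:dkey-86l18.10* (r = 0.957) and *serpina1l* (r = 0.937). *apoa2* was most like *stau2* (r = 0.956) and *eci1* (r = 0.944). For *apoa4b.1* these were *pla2g12b* (r = 0.943) and *allc* (r = 0.919), for *apobb.1* *ahcy* (r = 0.908) and *eno3* (r = 0.890), and for *apoc2* *acadl* (r = 0.913) and *zgc:92137* (r = 0.862). After *fabp1b.1*, *apoea* was most like *wu:fa56d06* (r = 0.934).

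The genes *apoeb* and *apoa1a* had weaker best matches over the 17 samples. *apoeb* was most like *ecel1* and the transthyretin gene *ttr* (r = 0.850 each). *apoa1a* was most like *cish* (r = 0.843) and *si:dkey-246g23.4* (r = 0.816), and these were 0.688 and 0.682 without the 2 samples farthest from its median. With the same omission, each gene by its own median, *apoeb* had 0.809 and 0.862. The first matches of the other genes then ran from 0.866 (*apoba*) to 0.947 (*apoc1*). The second match was 0.811 for *apoba* and 0.725 for *apoc2*.

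Of the 10 genes, 5 stand in 1 run of 8 apolipoprotein genes in the RefSeq annotation of the assembly GRCz12tu, in the order *apoa4b.1*, *apoa4b.3*, *apoa4b.2*, *apoeb*, *apoc1*, *apoc4*, *apoa2* and *apoc2*. At 1 dpci the genes of this run did not move alike. *apoc1*, *apoa2* and *apoa4b.1* fell, *apoeb* (-0.03) and *apoc2* (-0.96) did not pass, and *apoa4b.2* (0.95 ± 1.00, SE) and *apoc4* (-1.07 ± 1.24, at most 6.71 CPM in any sample) did not pass. *apoa4b.3* was not analysed here.

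A further list of apolipoprotein genes had 7 of 16 members in the table. At 1 dpci 4 of the 7 fell and 1 rose in edgeR's test, against 14.5% and 9.43% of all entries. *apom*, whose product rides on high-density lipoproteins, measured 1491, 1368, 2782, 1620 and 1441 CPM in sham and 652, 680, 771 and 972 CPM at 1 dpci. Every 1 dpci sample lay below every sham sample. Its log2 fold change was -2.15 ± 0.41 (SE, adjusted p = 0.00162), and of the alternatives run it was lost only against sham replicate 5 alone (-1.39, adjusted p = 0.208). At 3 dpci *apom* measured 2384 to 5110 CPM, a rise of 2.85 ± 0.43 from 1 dpci (adjusted p = 0.00108).

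The acute phase gene *saa*, whose product joins high-density lipoproteins, had 0 to 3.74 CPM in sham and 83.8, 70.6, 25.2 and 26.0 CPM at 1 dpci. The log2 fold change was 4.41 ± 1.33 (SE, adjusted p = 0.0246). The call was lost without 1 dpci replicate 1 (adjusted p = 0.0629), 1 dpci replicate 2 (0.0571) or sham replicate 2 (0.0576). It was also lost without replicates 1 and 2 of 1 dpci together (0.211) and with the pairs summed (0.0887). *apobb.2*, which lies on the chromosome of *apobb.1*, had 166 to 355 CPM in sham and 27.6, 24.5, 85.1 and 100 CPM at 1 dpci (-3.25 ± 0.91, SE, adjusted p = 0.0176), and the call was lost without 1 dpci replicate 1 (0.0590) or 2 (0.0573). The call of *apobb.2* was also lost without both replicates (adjusted p = 0.1895) and with the pairs summed (0.1338). The falls of *apoda.2* (-3.30, adjusted p = 0.0447) and *clu* (-1.79, adjusted p = 0.0361) were lost with column totals (0.102 and 0.257). Each was also lost in 6 of the 9 fits without 1 replicate. Both were lost without replicates 1 and 2 of 1 dpci (0.2832 and 0.2205) and with the pairs summed (0.1537 and 0.1384). *clu* was lost without replicates 3 and 4 of 1 dpci as well (0.0836).

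Of 18 tested genes of receptors and remodelling, 3 rose and 5 fell at 1 dpci, with a median of -0.88. Of all entries 9.43% rose and 14.5% fell, here and for the lists that follow. *abca1b*, a lipid exporter that loads apoA-I, had 5.27 ± 4.75 (SD, n = 5) CPM in sham and 177 ± 96.7 (SD, n = 4) CPM at 1 dpci, a log2 fold change of 4.44 ± 0.65 (SE, adjusted p = 0.000304). Falls were -3.11 ± 0.52 for *ldlra*, the low-density lipoprotein receptor gene, and -4.20 ± 0.86 for *cetp*, the cholesteryl ester transfer protein gene. Their adjusted p values were 0.000699 and 0.00283, and the call of *cetp* was lost without replicates 1 and 2 of 1 dpci (-3.99, adjusted p = 0.0615) and with the pairs summed (-4.19, adjusted p = 0.0538).

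Of 17 tested genes of lipoprotein assembly and secretion, 3 rose and 2 fell, with a median of -0.05. The number that fell was no larger a share than that of all entries (14.5%). *dgat2* fell (-2.44 ± 0.46, SE, adjusted p = 0.00164) and *dgat1b* rose (2.58 ± 0.57, adjusted p = 0.00437), both of which code for enzymes of the last step of triglyceride synthesis. The call of *dgat1b* was lost without replicates 1 and 2 of 1 dpci (1.37, adjusted p = 0.166). *pla2g12b*, which is needed for lipoprotein secretion in zebrafish, fell by 1.48 on the log2 scale (adjusted p = 0.000899), a call lost with column totals (-0.51, adjusted p = 0.16). *sec24c*, a coat protein of the vesicles that leave the endoplasmic reticulum, rose (1.24 ± 0.33, adjusted p = 0.0135). The call was lost without either 1 dpci pair (0.0534 and 0.106) and with the pairs summed (0.0758).

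Of 21 tested regulators of apolipoprotein genes, 2 rose and 2 fell, with a median of -0.22, and these counts are near or below the shares of all entries (9.43% and 14.5%). *cebpb*, a transcription factor of the acute phase response, rose by 1.96 ± 0.32 (SE, adjusted p = 0.000569). *nr1h5*, a nuclear receptor of the farnesoid X receptor group, rose by 0.94 ± 0.30 (adjusted p = 0.0303). The retinoid X receptor gene *rxrga* (-1.71, adjusted p = 0.0216) and *srebf1*, a regulator of lipid synthesis (-1.39, adjusted p = 0.0255), fell with TMM factors and were not called with column totals (0.182 and 0.368). The calls of *nr1h5*, *rxrga* and *srebf1* were each lost in 3 of the 9 fits without 1 replicate. They were also lost without replicates 1 and 2 of 1 dpci (adjusted p = 0.1022, 0.1434 and 0.2384). The same held without replicates 3 and 4 (0.1651, 0.1092 and 0.0506) and with the pairs summed (0.1348, 0.1395 and 0.1515). With column totals the medians of the 3 lists moved with that of all entries (0.84), to -0.0006 for receptors and remodelling, 0.74 for assembly and secretion and 0.61 for regulators. The counts that rose and fell were then 4 and 4, 8 and 1, and 3 and 0, against 37.5% and 5.62% of all entries. No gene of these lists or of the further apolipoproteins passed at 3 or 7 dpci against sham, where 0.0119% and 0% of all entries did.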

How the data were processed

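Per the methods and the submitters' processing notes, the authors trimmed reads with cutadapt 1.16, mapped them with HISAT2 2.1.0 and counted them per gene with featureCounts 1.6.0. The genome build is given as danRer10 in one source and as a later Ensembl build in another, and strand setting and multi-mapping reads are not given in the sources used here. The deposited counts hold 8513 entries, by a filter that is not stated. In the deposited CPM values, a count stands over the total of its column. Groups follow the condition named in the labels. Tests on the counts used edgeR 4.0.16 under R 4.3.3 (filterByExpr, TMM, quasi-likelihood test, 1 fit of all 17 samples), and p was adjusted by Benjamini and Hochberg's method over 8412 entries. DESeq2 1.42.0, edgeR's exact test, other scalings, no filter, a fit of 2 groups, the replicate number as a block, the omission of each replicate, the 1 dpci samples summed in 2 pairs and sham replicate 5 as the only sham sample were alternatives. The omission of the 1 dpci pairs was added after seeing the data. Log2 CPM carried a prior count of 2, and ratios of counts a pseudocount of 0.5. All per-sample columns were used. The precision at 4743533 to 6800961 counts per sample covers counting error only, and 3 counts were taken as the smallest detectable amount.

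The members and gene lists were chosen with earlier results of these data known. The genes named are the members, all other listed apolipoproteins in the table, the 4 genes of lowest adjusted p at 1 dpci in each of 3 lists, the 2 genes most like each member, and cell markers as checks. A gene that this rule names is not reported here. The scripts were tested on simulated data. RefSeq, in the assembly GRCz12tu, was used for names and gene order only and matched 10 of 10 members. Red cell, bile duct and endothelial markers and vitellogenins, listed as checks, had 4 of 6, 0 of 8 and 0 of 2 genes lower at 1 dpci and none higher, against 14.5% and 9.43% of all entries. With column totals 3 red cell genes were lower, and 4 of the 8 bile duct and endothelial genes (*krt8*, *cdh5*, *pecam1* and *kdrl*) and 1 vitellogenin were higher, against 37.5% of entries higher. Of 11 enterocyte markers 1 was lower and none higher, and of 16 macrophage and neutrophil markers 2 were lower and 2 higher. Mitochondrial entries without a gene symbol were added to that list after seeing the table.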

Additional observations from a re-analysis of the deposited data

Results flagged for a closer look

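In 7 of the 40 groups of 4 or 5 samples formed by the 10 genes, 1 sample stood apart from the rest by Dixon's criterion on CPM. Chance alone meets it in about 1 of 20 groups that are independent and normally distributed. The 40 groups share the same 17 samples, and levels such as those of *apoea* were uneven. The 7 can therefore not be set against that rate. *apoea* was highest in sham replicate 2 (231 CPM), 3 dpci replicate 1 (196.1 CPM) and 7 dpci replicate 4 (637.6 CPM), the 3 samples with the most enterocyte marker RNA. 3 dpci replicate 1 also had the highest *apoa2* (84227 CPM). Sham replicate 5 was highest in *apoba* (955.6 CPM) and *apoeb* (2178 CPM), and 7 dpci replicate 2 was lowest in *apoa1b* (14468 CPM).

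The change from sham differed between times in edgeR's test. These differences are the comparisons of 3 and 7 dpci with 1 dpci given above, since the sham samples cancel, and add no further test. From 1 to 3 dpci it differed for *apoa1b* by 2.25 on the log2 scale, for *apoa2* by 2.03, for *apoba* by 1.98 and for *apoc1* by 2.29. From 1 to 7 dpci it differed for *apoa1b* by 1.92, for *apoa2* by 1.52, for *apoba* by 2.63, for *apobb.1* by 0.93 and for *apoc1* by 1.94. Without replicates 1 and 2 of 1 dpci only *apoc1* passed in each, with 73 and 304 of all entries called higher in place of 644 and 1226.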

How the results depend on the processing

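Against sham, 6 members passed at 1 dpci, and without replicates 1 and 2 of 1 dpci 3 did, while the entries called lower went from 1216 to 338. With replicate 5 as the only sham sample 1 did (*apoc1*), in a fit with fewer samples where the entries called lower went from 1216 to 78, and *apoea* was then at 4.28. The omission of 1 dpci replicates 1 and 2 left 1 of 4 from 1 to 3 dpci and 1 of 5 from 1 to 7 dpci. The number of all entries called higher went from 644 to 73 and from 1226 to 304. Summing the pairs left 1 and 2 members, with 85 and 309 of all entries called higher. Column totals left 3 from 1 to 7 dpci, where 540 of all entries were called higher. DESeq2 called 1 at 3 dpci where edgeR's quasi-likelihood test called 0, against 1.9% and 0.0119% of entries. Without 1 replicate the count ran from 3 to 5 from 1 to 7 dpci. With the replicate number as a block, 6 members passed at 1 dpci, 3 from 1 to 3 dpci and 5 from 1 to 7 dpci. Of all entries, 1056 were then lower at 1 dpci, and 489 and 1014 were higher from 1 dpci to 3 and 7 dpci. Samples with the same number did not deviate together (r from -0.257 to 0.419 over 24 pairs), so the number gives no pairing.

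Of the values that missed the threshold, *apoeb* at 1 dpci turned to 0.57 without replicates 1 and 2, 0.86 with column totals, 0.58 with column totals outside the mitochondrial genome and 0.24 with the block, and ran from -0.34 to 0.26 without 1 replicate. *apoa1a* at 1 dpci turned to -0.22 without replicates 1 and 2 and ran from -0.052 to 1.04. *apoc2* turned to 0.013 with column totals, and *apoc4* ran from -2.29 to 0.75. Without 1 replicate, the difference in log2 ratio at 7 dpci ran from -0.99 to 0.16 for *apoa1b* to *apoa1a* and from -1.71 to 1.54 for *apoeb* to *apoea*, and at 3 dpci from -0.14 to 0.29 for *apobb.1* to *apoba*. The apolipoprotein share outside the mitochondrial genome was 18.9% in sham and 7.30, 19.1 and 15.1% at 1, 3 and 7 dpci. The causes were not tested. With pseudocounts of 0 or 2 no ratio changed sign or side of the threshold. Depth limits *apoea*, *apoc4* and *saa*, which had few or no counts in some samples.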
